A study of Mus musculus with 384 samples.

Results

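The cytosolic ribosomal protein genes were described in individual cells sorted from the spinal cord of Optn knockout mice (Optn encodes optineurin, which acts in autophagy). They were chosen by symbol: Rpl or Rps followed by a digit, with the stalk genes Rplp0, Rplp1 and Rplp2 and the small subunit gene Rpsa, and without the Rps6 kinases and rows marked as pseudogenes. The rule found 86 of the 23420 genes in the table, 34 of the small and 52 of the large subunit by name. Of these, 77 are core subunits (31 small, 46 large), 8 are paralogs such as Rpl22l1, and Rps19bp1 shares the name only, since it encodes a protein that binds Rps19. Fau, which encodes a ribosomal protein fused to a ubiquitin-like protein, falls outside the rule and is given with the related genes.

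Ribosomal proteins are assembled on ribosomal RNA in the nucleolus into a small subunit, which reads the mRNA, and a large subunit, which joins amino acids. Their mRNAs start with a C followed by a run of pyrimidines, the terminal oligopyrimidine (TOP) motif, through which mTORC1 and LARP1 control their translation together with that of several translation factors. Neutrophils are short-lived cells that make most granule proteins as immature cells in the bone marrow, and they are known for low protein synthesis once mature.

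All cells came from spinal cord and carried 1 genotype label, Optn KO; cells of other genotypes were not analysed here. Cells stained for CD45, CD11b and CX3CR1 were sorted singly into 4 plates and made into SmartSeq2 libraries (full-length cDNA, no molecular identifiers). The labels fill 96 wells on each plate, and the cells with a column in the table were used: 77, 77, 85 and 87 on plates 1 to 4. They fall into 2 replicates, plates 1 and 2 in the first and plates 3 and 4 in the second. The labels do not state whether these are separate mice, so the 2 samples may be technical. The p-values below use the variation left once the mean difference between the 2 replicates is removed, pooled over all cell classes. They do not measure a spread between mice. The allele, age and sex were not given in the sources used here.

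TPM (transcript abundance per unit of length, scaled to 1000000 in each cell) keeps no depth. The number of genes above 0 stood in for depth, with a median of 1681 per cell and a range of 675 to 5707. Optn was listed at 0 in every cell, although a 0 in this table can also be a failed estimate. The title of the series calls the cells microglia, but the microglial genes P2ry12 and Tmem119 were above 0 in 2 and 3 cells and Sall1 in 0, and the median cell of every class below had none of the 13 microglia markers. The most often detected of the 13 were P2ry13, above 0 in 22 cells, and Trem2, in 8, all of them in the class called other cells below for Trem2.

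Cells were placed in 5 classes by genes outside the ribosomal set. Neutrophils were cells with at least 10000 TPM on S100a8 plus S100a9, the 2 chains of calprotectin. Those with Mki67 (a proliferation marker) above 0 made up the Mki67-positive class of 37 cells. The rest were divided by the mean log2(TPM + 1) of 4 granule protein genes, Camp, Ngp, Ltf and Lcn2, into granule-high (10 and above; 47 cells in replicate 1 and 68 in replicate 2), granule-intermediate (65 cells) and granule-low neutrophils (below 5; 69 cells). The remaining 40 cells are called other cells: 27 of them had at least 3 monocyte markers above 0, 2 had at least 3 B cell markers, 2 had at least 3 T or NK cell markers, and 9 had 3 of none of these lists. The median cell had 7 to 9 of 9 neutrophil markers above 0 in the neutrophil classes, with 1 or 2 of 8 monocyte markers, and 4 and 7 of them in other cells. The neutrophil list includes S100a8, S100a9, Ngp and Camp, which also set the classes, so its count is not independent of them. Other cells are thus a mixture, and the part of its composition in the differences below was not tested.

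Sequence around the annotated starts of the most abundant members is shown because TOP mRNAs begin with a run of pyrimidines. RefSeq (GRCm38.p6) gave a window around the annotated transcription start for 65 of the 86 genes. Of the 10 members with the highest mean TPM, 8 had one, and 30 bases are printed for each, 5′ to 3′ on the gene's own strand, with the longest run of C and T between 50 bases before and 50 after the start in capitals. Where RefSeq has several starts for a gene, the one with the longest run was used.
Rps9: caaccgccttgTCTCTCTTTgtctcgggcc
Rpl10: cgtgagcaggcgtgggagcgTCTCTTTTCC
Rps4x: cgcgcagcctccgaccctaaTTTCTTCgtt
Rplp0: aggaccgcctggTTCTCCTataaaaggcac
Rpl9: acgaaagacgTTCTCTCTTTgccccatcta
Rpl13: cgtgacgtcaCTTCCCTTTCgcctgatttt
Rps3a1: acgtagacggcgCTCCCCgcccggctcgcg
Rpl19: gcggcccacaagCTCTTTCCTTTCgctgct
These lie at chr7:3704024-3704053 on the plus strand for Rps9, chrX:74270836-74270865 (plus) for Rpl10 and chrX:102189342-102189371 (minus) for Rps4x. Rplp0 is at chr5:115559466-115559495 (plus), Rpl9 at chr5:65391383-65391412 (minus) and Rpl13 at chr8:123102324-123102353 (plus). Rps3a1 is at chr3:86142623-86142652 (minus) and Rpl19 at chr11:98026944-98026973 (plus). Counted with the annotated start as base 1, the runs begin at base -6 for Rps9, -16 for Rpl13, 12 for Rplp0, 29 for Rps3a1, 30 for Rpl9, 33 for Rpl19 and 41 for Rpl10 and Rps4x. The run of Rpl10 reaches the end of the window.

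A run of at least 8 pyrimidines lay between 50 bases before and 50 after the start in 53 of the 65 members (81.5%), against 39.3% of all 27025 genes with a window and 39.8% of those tested for expression below. The longest run had a median of 10 bases in the members and 7 in all genes. In the windows printed above, the runs of Rps4x and Rplp0 have 7 bases and that of Rps3a1 has 6, so these 3 are not among the 53. The letters CTTTCC, searched on the sense strand in the same window, were present in 30.8% of members, 5.43% of all genes and 5.74% of the genes tested. CCGGAAG, searched on both strands over 250 bases before to 50 after the start, was present in 40% of members, 9.93% of all genes and 23.6% of the genes tested for expression below. TATAAA, searched on the sense strand of that longer window, was present in 9.23% of members, 9.77% of all genes and 5.69% of the genes tested. The CTTTCC and pyrimidine searches overlap, since CTTTCC is itself a pyrimidine run, and an annotated start can lie some bases from the start used in a cell. A gene with several annotated starts was counted if any of them had the run or letters, so genes with more starts had more chances. A run at any place in the window counted, so these are not counts of TOP motifs, which lie at the first base of the mRNA.

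Summed over the 86 genes, ribosomal protein transcripts took a far larger share of TPM in the other cells than in any class of neutrophils. In the other cells the share was 9.70% in replicate 1 and 9.31% in replicate 2, a mean of 9.51% ± 0.281 (SD, n = 2). In all neutrophils together it was 1.69% and 1.46% (1.57% ± 0.164). The ratio of other cells to neutrophils was 5.74 in replicate 1 and 6.38 in replicate 2. The 4 plates gave 9.07% to 9.94% in the other cells and 1.42% to 1.80% in neutrophils, so the 2 ranges lay far apart on every plate.

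Within the neutrophils the share did not follow the granule genes in one direction. Granule-low neutrophils had 2.0% and 2.08% of TPM on ribosomal protein genes (2.04% ± 0.0568), granule-intermediate neutrophils 1.15% and 1.13% (1.14% ± 0.01) and granule-high neutrophils 1.36% and 1.21% (1.28% ± 0.103; SD, n = 2). The granule-low share exceeded the granule-high share 1.47-fold and 1.72-fold. By plate it ran from 1.91% to 2.19% in granule-low and from 1.18% to 1.39% in granule-high neutrophils, with no overlap, while the plate ranges of granule-high and granule-intermediate neutrophils (1.03% to 1.25%) did overlap. The Mki67-positive class had 3.16% and 1.64% (2.40% ± 1.07), a range that holds both granule-low values. With 2 replicates no permutation test of these shares can reach 0.05.

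**Figure D1:**
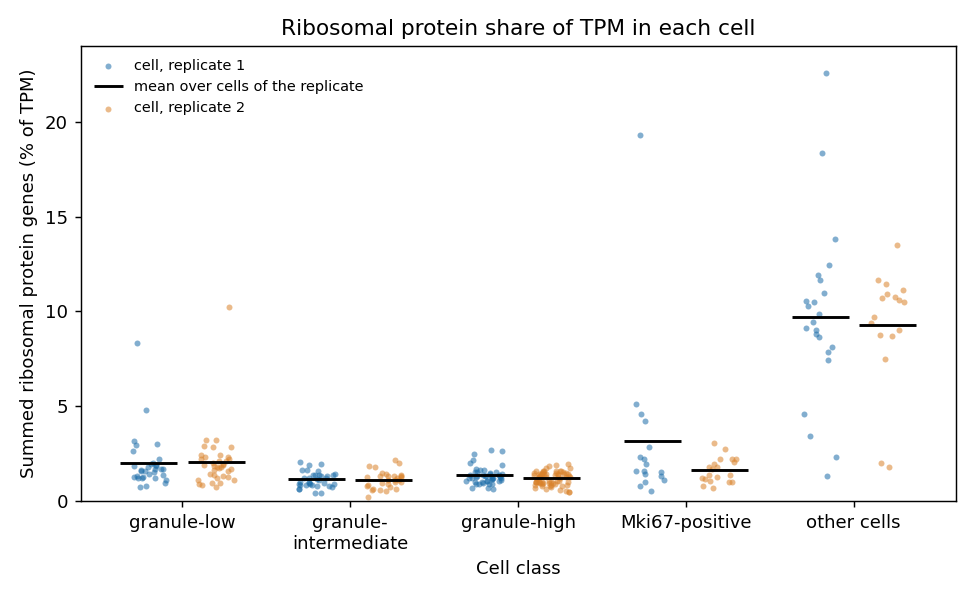
Summed ribosomal protein genes as a percentage of TPM (y axis) in each cell, by class (x axis) and replicate (colour); black lines are means over the cells of a replicate. Other cells have means of 9.70% and 9.31%, above every neutrophil class, and the single Mki67-positive cell at 19.3% lies in replicate 1.

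TPM has a fixed total per cell, and calprotectin and granule transcripts fill much of it in some classes. S100a8, S100a9 and the 4 granule genes took 8.71% ± 1.14 of TPM in granule-low, 16.5% ± 1.03 in granule-intermediate, 31.4% ± 2.06 in granule-high and 30.6% ± 1.75 in Mki67-positive neutrophils (SD, n = 2), and 0.0490% in other cells. With these 6 genes and the ribosomal RNA precursor Rn45s taken out of the total, the ribosomal protein share was 2.31% in granule-low, 1.44% in granule-intermediate, 2.05% in granule-high, 3.69% in Mki67-positive and 10.01% in other cells. The distance between granule-low and granule-high neutrophils was thus much smaller on that scale, and that between other cells and neutrophils remained. Rn45s itself took 3.84% to 4.08% of TPM in the neutrophil classes and 4.73% in other cells.

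The classes also differed in how many genes were detected: medians of 1353, 1507, 1893 and 2349 genes in granule-low, granule-intermediate, granule-high and Mki67-positive neutrophils, and 3027.5 in other cells. Among cells with 1500 to 3000 genes only, a range chosen after seeing the data, the share was 2.91% in 13 granule-low, 1.19% in 34 granule-intermediate, 1.28% in 98 granule-high, 1.76% in 24 Mki67-positive and 9.43% in 15 other cells. These 13 granule-low cells include 2 with B cell markers, described below. The part of depth in the differences between classes was not tested beyond this. Across neutrophils of one plate (67, 64, 77 and 78 cells), the Spearman correlation of the ribosomal protein share with the granule level was -0.02, -0.09, -0.22 and -0.14. With the number of genes detected it was 0.26, 0.17, -0.17 and 0.04, and with the Mki67 level 0.12, 0.31, 0.07 and 0.27. These are descriptions over cells that share the fixed total and the plate.

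A few cells stood apart from their class. Of the neutrophils, 4 had a share above 5%, and of 40 other cells, 6 had one below it. The highest neutrophil value, 19.3%, came from a Mki67-positive cell of replicate 1 whose S100a8 plus S100a9 level of 12512 TPM lay just inside the limit. It had all 16 proliferation markers and 79 ribosomal protein genes above 0. Over the 8 cells of plate 1 the Mki67-positive mean was 2.19%, over the 9 of plate 2, which hold this cell, 4.02%, and over plates 3 and 4 1.5% and 2.07%; the median cell of the class had 1.62%.

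The Mki67-positive class held 1 more of these cells, at 5.13% (replicate 1). The other 2 were granule-low neutrophils with shares of 8.36% (replicate 1) and 10.2% (replicate 2). Each had 5 of the 5 B cell markers in the table above 0, summing to 6314 and 10606 TPM, beside 38587 and 17941 TPM of S100a8 plus S100a9. The 2 other cells with at least 3 B cell markers and no S100a8 or S100a9 had the highest shares of their class, 18.4% and 22.6%. No doublet caller was run. Without the 2 granule-low cells the granule-low share was 1.79% in replicate 1 and 1.85% in replicate 2, and the highest of the remaining 67 cells had 4.80%.

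Of the 6 other cells with a low share, 5 had 1434 to 4019 TPM of S100a8 plus S100a9, below the limit of 10000 TPM for neutrophils. These 5 had 5 or 6 of 9 neutrophil markers (S100a8 and S100a9 are on that list), 1161 to 1513 genes detected and ribosomal protein shares of 1.32% to 3.42%. With the limit at 1000 TPM, which moves them and 1 further cell to the neutrophils, the other cells had a share of 10.5%. The 27 cells with monocyte markers ranged from 7.89% to 13.8%, with means of 10.2% and 10.5% in the 2 replicates. Among them, the 12 cells with Mki67 above 0 had 9.83% and 10.6%, and the 15 cells with Mki67 at 0 had 10.9% and 10.4%: the replicates went in opposite directions. The 2 cells with T or NK cell markers had 7.48% and 10.7%.

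**Figure D2:**
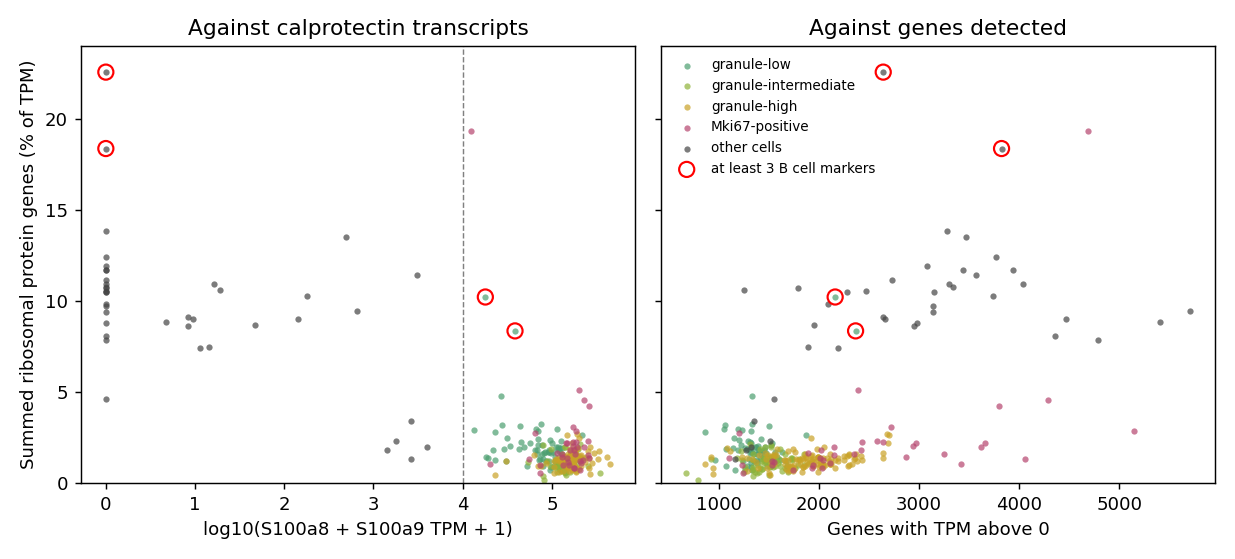
Summed ribosomal protein genes as a percentage of TPM (y axes) against log10(S100a8 + S100a9 TPM + 1) (left, dashed line at 10000 TPM) and against genes with TPM above 0 (right); each point is a cell coloured by class, and red rings mark the 4 cells with at least 3 B cell markers. Cells left of the line mostly lie above 5%, cells right of it mostly below, and 2 ringed cells right of it are at 8.36% and 10.2%.

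The genes were then compared singly. Mean TPM per class and replicate, as log2(mean TPM + 1), was fitted with limma for all 4586 genes with a mean of at least 5 TPM that were above 0 in no fewer than 10% of cells, and p-values were adjusted over all of them by the Benjamini-Hochberg method at 0.05. Of the 86 genes, 81 passed this filter. The 5 that did not were Rpl30 (a core large subunit gene above 0 in 13 cells), Rps19bp1, Rpl3l (the striated muscle paralog of Rpl3), Rpl10l and Rpl39l (paralogs known from testis); the last pair was listed at 0 in every cell. The filter used all cells, so a gene low in neutrophils could pass it through its level in the other cells. The counts below describe the 81 genes that passed.

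In other cells, 64 of the 81 genes were higher than in granule-low neutrophils and 0 were lower (limma, adjusted p below 0.05). Over all genes tested, 9.9% were called higher and 6.26% lower. The median log2 difference of the 81 was 2.35, against 0.24 for all genes tested. In 77 of the 81 both replicates of other cells lay above both of granule-low neutrophils, which 34.2% of all genes tested showed. Both subunits took part: 25 of 31 core small and 38 of 45 tested core large subunit genes were called higher, with median log2 differences of 2.53 and 2.28. Only 1 of the 5 tested paralogs, Rpl36al, was among them.

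The 3 genes of the P-stalk, the arm of the large subunit that recruits the translational GTPases, were all higher. Rplp0 was at 526 and 485 TPM in granule-low neutrophils and at 3385 and 3293 TPM in other cells, a log2 difference of 2.72 (SE 0.24, adjusted p = 0.000298, limma). Rplp1 and Rplp2, its acidic partners, differed by 2.53 (adjusted p = 0.0466) and 1.78 (adjusted p = 0.0346). The Rplp0 groups lay far apart, with each pair of replicates close together. The calls of Rplp1 and Rplp2 are near the threshold and were lost under 6 and 3 of the alternative settings, with the same direction.

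Among genes around the catalytic centre and exit tunnel of the large subunit, Rpl3 was at 136.1 and 155.8 TPM in granule-low neutrophils and 2274 and 2835 TPM in other cells, a log2 difference of 4.11 (SE 0.57, adjusted p = 0.00258). Rpl4, which lines the tunnel, was at 282.8 and 189.2 TPM against 2233 and 2438 TPM (log2 difference 3.33, SE 0.29, adjusted p = 0.000292). Rpl10, which joins the large subunit late in its assembly, was at 819.9 and 493 TPM against 3452 and 3518 TPM, a difference of 2.45 (adjusted p = 0.000860). In none of these 3 did the groups overlap.

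Of the small subunit genes, Rps4x, the X-linked member, was at 410.7 and 320.9 TPM in granule-low neutrophils and at 4043 and 3591 TPM in other cells, where it was the most abundant member. Its log2 difference was 3.39 (SE 0.37, adjusted p = 0.000926). Rpsa, also known as the laminin receptor precursor, was at 37.3 and 86.7 TPM against 1460 and 1022 TPM, a difference of 4.40 (SE 0.58, adjusted p = 0.00214). Rps18 had the highest fitted difference, 5.50 (SE 1.52, adjusted p = 0.0408), but its granule-low replicates were 3.14 and 174.5 TPM, against 1215 and 1229 TPM, so that its size rests on 1 replicate. Rpl22 (4.92) and Rpl35 (4.85) came next, then Rpsa and Rpl10a (4.35). The calls of Rps18 and Rpl10a were each lost under 3 alternatives; without the replicate block the adjusted p of Rpl10a was 0.0645 and that of Rplp1 0.0508. Rpl22, a large subunit protein known from T cell development, was low throughout, at 6.93 TPM and listed at 0 in the 2 granule-low samples and at 79.3 and 89.5 TPM in other cells. Its pass through the filter on low values rests largely on the other cells.

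The other abundant members were also called: Rpl13 at a log2 difference of 3.16, Rpl19 at 2.99, Rps3a1 at 2.35, Rpl7 at 2.12 and Rps27a, which is made as a fusion with ubiquitin, at 0.83 (adjusted p = 0.0283; 0.158 after centring on the median of the genes tested). Rpl9 was not, at 750.6 and 916.5 against 2156 and 1685 TPM (difference 1.2, adjusted p = 0.0551), though it was called higher under 7 of the alternative settings. Among the 17 genes that did not pass were Rps9, Rps20, Rps21, Rps27, Rps27l, Rps28 and Rps4y2 of the small subunit, and Rpl7l1, Rpl9, Rpl17, Rpl22l1, Rpl26, Rpl34, Rpl37, Rpl37a and Rpl38 of the large. The 5 lowest differences of the set were those of Rpl34 (-0.20), Rps9 (0.18), Rpl7l1 (0.21), Rpl37 (0.44) and Rps4y2 (0.60).

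**Figure D3:**
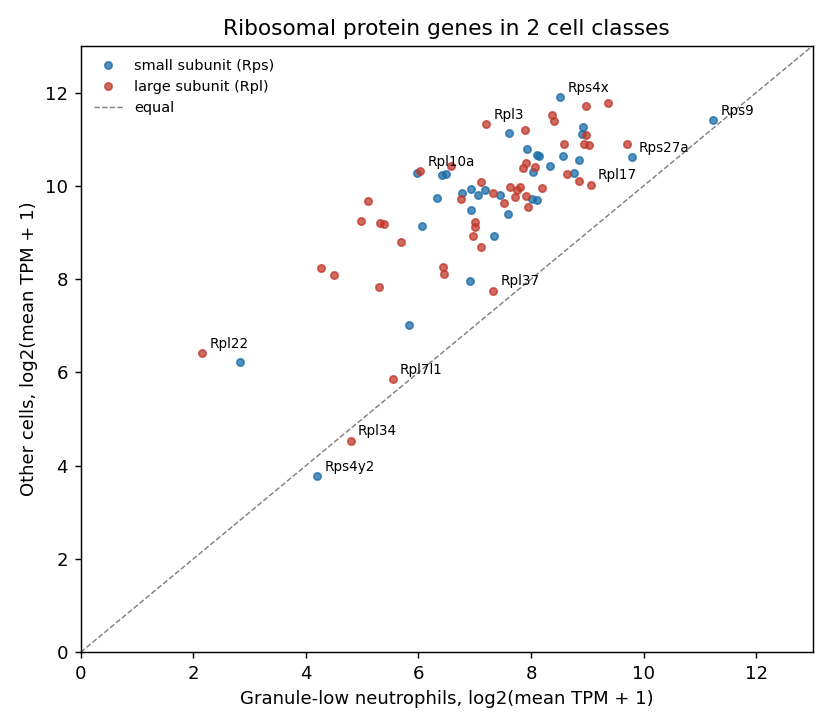
Mean TPM over 2 replicates, as log2(mean TPM + 1), in granule-low neutrophils (x axis) and other cells (y axis) for the 81 ribosomal protein genes tested; blue points are small and red points large subunit genes, and the dashed line marks equal levels. Most points lie above the line, while Rps9, the most abundant member in granule-low neutrophils, lies near it.

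Rps9 encodes a small subunit protein near the entry of the mRNA channel. The gene lies at chr7:3703954-3706897 on the plus strand (RefSeq, GRCm38.p6), and the first sequence printed above lies inside this interval, at another annotated start of the gene than its first base. Its level was 2277 and 2539 TPM in granule-low, 1319 and 1484 TPM in granule-intermediate, 951 and 924 TPM in granule-high and 934 and 822 TPM in Mki67-positive neutrophils, and 2660 and 2780 TPM in other cells. The log2 difference of other cells from granule-low neutrophils was 0.18 (95% interval -0.22 to 0.58, adjusted p = 0.535, limma), and both had more than the 3 remaining classes.

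Rps9 was the most abundant ribosomal protein transcript in granule-low, granule-intermediate and granule-high neutrophils, and was above 0 in 90.2% of all cells. It made up 11.8% ± 0.579 of the summed ribosomal protein TPM in granule-low, 12.3% in granule-intermediate, 7.32% in granule-high and 3.98% in Mki67-positive neutrophils. In other cells it made up 2.86%, and 4 members were more abundant. Fau, outside the name rule, had similar levels: 2461 and 2660 TPM in granule-low, 1775 and 1188 in granule-intermediate, 808 and 948 in granule-high, 934 and 1104 in Mki67-positive neutrophils, and 2476 and 2999 in other cells. Both genes were thus high in granule-low neutrophils and other cells, with the 3 remaining classes below.

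Between granule-high and granule-low neutrophils, Rps9 was the 1 gene of the 81 that was called. It fell by 1.36 on the log2 scale in granule-high neutrophils (SE 0.18, adjusted p = 0.00334, limma), to 0.390 of the granule-low level, and its replicates did not overlap. No gene of the set was called higher; at an unadjusted p below 0.05, 1 was higher and 18 were lower. Over all genes tested 2.94% were called higher and 3.58% lower, and at the unadjusted level 9.42% were higher and 12.2% lower. Fau fell by 1.55 (SE 0.23, adjusted p = 0.00660). With means of log values over cells in place of the log of the mean, the Rps9 difference was -0.71 (adjusted p = 0.404).

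The 81 genes as a group had a median log2 difference of -0.61 from granule-low to granule-high, against -0.20 for all genes tested. In 47 of them both granule-high replicates lay below both granule-low ones, as in 35.8% of all genes tested, and in 5 both lay above, as in 21.5%. That median was -0.12 (0.21 for all genes tested) with the calprotectin, granule and Rn45s transcripts taken out of the total, and 0.69 (0.36) with means of log values over cells. It was -0.24 (-0.15) without the 2 granule-low cells with B cell markers, so both its size and its sign depended on the setting.

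The lowest differences belonged to Rpl10a (-2.68), a protein of the L1 stalk at the tRNA exit, Rpl17 (-1.52), Rps6 (-1.51), the substrate of S6 kinase, Rpl26 (-1.49) and Rpl13a (-1.45), with adjusted p from 0.0682 to 0.224. Rpl17 was at 711.7 and 353.1 TPM in granule-low against 162.5 and 185.9 TPM in granule-high neutrophils, and Rps6 at 391.98 and 368.8 against 161.8 and 108.98 TPM. Rpl10a was at 83.1 and 45.8 against 18.9 and 3.80 TPM. In all 3 genes the groups did not overlap, though none passed the test as fitted here. Under alternative settings Rpl17 was called lower in 3 (adjusted p from 0.0119 to 0.0382), Rps6 in 2 (0.0228 and 0.0392) and Rpl13a in 1 (0.0193). The values 0.0119, 0.0228 and 0.0193 came from averages per plate. That setting enters the 2 plates of a replicate as separate samples, though they are not independent replicates. The highest were Rps18 (1.88), Rpl35 (1.56), Rps4y2 (1.16), Rpl22l1 (1.02) and Rpl36al (0.89), with adjusted p of 0.323 and above. The sizes differed between replicates: with 1 replicate left out Rps18 ran from -0.80 to 4.56, Rps4y2 from -2.56 to 4.88, Rpl22l1 from -0.13 to 2.18 and Rpl35 from 0.37 to 2.76. Rps18 was called higher (5.84, adjusted p = 0.00408) with the calprotectin limit at 50000 TPM.

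Mki67-positive and granule-high neutrophils had similar mean shares of calprotectin and granule transcripts, but their cells were not matched on granule level. The Mki67-positive class was set without a granule limit, and some of its cells lay below the limit for granule-high neutrophils. Their levels ran down to 0 in both replicates, and the cell at 19.3% had 5.52. Between the 2 classes, 0 of the 81 genes were called in either direction, and 0.0% of all genes tested were called (limma). At an unadjusted p below 0.05, 25 of the 81 were higher and 0 lower, against 3.82% and 3.42% of all genes tested. Both Mki67-positive replicates lay above both granule-high ones in 57 genes, which 22.4% of all genes tested showed, and below both in 2 genes, which 20.8% of all showed. The median log2 difference was 0.92, against 0.00 for all genes tested, 0.46 in replicate 2 alone and 1.34 in replicate 1 alone, the replicate with the cell at 19.3%. Over alternative settings that keep both replicates, the lowest median was 0.63 (-0.05 for all genes tested), with the calprotectin limit at 50000 TPM. That limit moves the cell at 19.3% to the other cells. The highest was 1.54 (0.34), with means of log values. With means of log values, which weigh each cell's log level alike, 11 of the 81 were called higher, as were 2.64% of all genes tested. Mki67-positive cells also had more genes detected (median 2349 against 1893), and the part of depth in these calls was not tested.

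Rpsa was among the genes with the highest differences. It was at 63.5 and 45.7 TPM in granule-high and at 493.9 and 190.1 TPM in Mki67-positive neutrophils, a log2 difference of 2.49 (SE 0.58, adjusted p = 0.287). Rpl10a (3.42), Rpl36a (3.18) and Rps20 (2.45) were also among them, with adjusted p from 0.440 to 0.699. Replicate 1 had the higher Mki67-positive level in these 4 genes. The lowest were the paralog Rpl7l1 (-1.47), Rps4y2 (-0.64), Rpl34 (-0.59), Rps27 (-0.25) and Rps27a (-0.17). Rps9 had a difference of -0.10, and of the P-stalk genes Rplp0 had 0.39, Rplp1 0.21 and Rplp2 1.29, none of them called. Among Mki67-positive cells, the 27 with at least 10 TPM of Mki67 had ribosomal protein shares of 3.72% and 1.89% in the 2 replicates, and the 10 with less had 1.33% and 1.07%. The mean of 3.72% includes the cell at 19.3%. Over both replicates the median cell had 1.98% in the set of 27 and 1.13% in the set of 10.

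The number of ribosomal protein genes above 0 in a cell followed the same order as the number of genes detected from granule-intermediate neutrophils to other cells. The median cell had 21.5 and 24 of the 86 genes above 0 in granule-low neutrophils (replicates 1 and 2), 22 and 19 in granule-intermediate, 37 and 30 in granule-high, 56 and 47.5 in Mki67-positive neutrophils, and 78 and 77 in other cells. Granule-low neutrophils thus had fewer of the genes above 0 than granule-high ones, with a higher summed share. Genes above 0 in at least 50% of the cells of a class numbered 9 in granule-low, 5 in granule-intermediate, 32 in granule-high, 62 in Mki67-positive and 77 in other cells. Values of 0 can be failed estimates at low depth, and the part of depth in these counts was not tested.

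**Figure D4:**
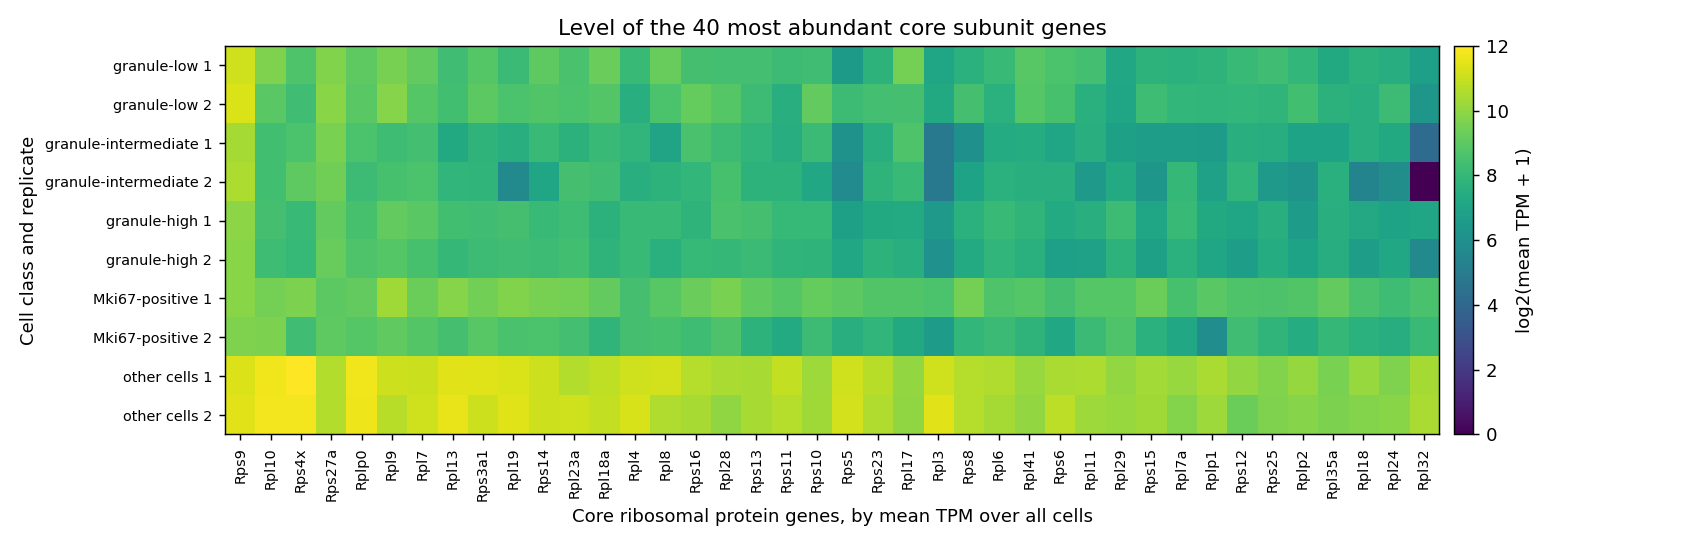
Level of the 40 core ribosomal protein genes with the highest mean TPM over all cells (columns, in that order) in each class and replicate (rows), as log2(mean TPM + 1) by colour. The 2 rows of other cells are bright across most columns, and the Rps9 column at the far left is bright in every row.

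Levels varied widely among the members. Mean TPM over all cells ran from 1552 for Rps9, followed by Rpl10 (830.4), Rps4x (794), Rps27a (787) and Rplp0 (782), down to 14.1 for Rpl22 among the core genes. Rpl34, at 25.3 TPM, was one of the lowest core genes, while the pseudogene row Rpl34-ps1, left out by the rule, had 283.9 TPM. Reads that fit a gene and a near-identical copy can be divided between them by the authors' estimation, so the levels of Rpl34, Rps15a (15.8 TPM) and Rps4y2 are uncertain. Core small subunit genes together took 4.2% and 3.93% of TPM in other cells and core large subunit genes 5.39% and 5.27%. In granule-low neutrophils the same sums were 0.896% and 1.04% for the small and 1.09% and 1.02% for the large subunit, so the subunits were nearly level there.

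The paralogs were set beside their parents on the difference between other cells and granule-low neutrophils. Rpl36a and Rpl36al were both higher, by 3.80 (adjusted p = 0.0339) and 4.28 (adjusted p = 0.00872). Rpl22 was higher and Rpl22l1 had 11.1 and 32.2 TPM against 340.1 and 203.2 TPM without passing (3.72, adjusted p = 0.0779). Rpl7 was higher, while Rpl7l1 was at 44.1 and 47 TPM against 78.3 and 35.6 TPM, and its groups overlapped (0.21, adjusted p = 0.887). Neither Rps27 (1.61, adjusted p = 0.0829) nor Rps27l (0.99, adjusted p = 0.481) passed. Whether a paralog and its parent differed from each other was not tested.

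Related genes from fixed lists were read in the same fit. Of 17 translation factors and other genes with TOP mRNAs, 10 were higher in other cells than in granule-low neutrophils and 0 lower, with a median log2 difference of 2.24 (0.24 for all genes tested). Eef1a1, which carries aminoacyl-tRNA to the ribosome, was at 1176 and 933 TPM in granule-low neutrophils and at 7415 and 7432 TPM in other cells (2.82, adjusted p = 0.000201). Eif3h, a subunit of the initiation factor eIF3, was higher by 3.61, Eef2, which moves the ribosome along the mRNA, by 1.93 and Tpt1 by 1.80. Gnb2l1, the Rack1 scaffold on the small subunit, was higher by 4.89 (adjusted p = 0.00106), while Fau had 0.09 (adjusted p = 0.832).

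Many of the genes that build or control cytosolic ribosomes did not pass the filter on low values. Of 20 ribosome biogenesis genes 7 were tested, and 2 were higher in other cells: Dkc1, the pseudouridine synthase of the snoRNA particles (4.34, adjusted p = 0.0106), and Nop10, its partner (5.39, adjusted p = 0.0202). Dkc1 was at 0.468 and 0.169 TPM in granule-low neutrophils and at 40.3 and 16 TPM in other cells. Its pass through the filter rests largely on the other cells. Of 17 genes of mTORC1, Myc and S6 kinase control 9 were tested and 0 were called (limma; 1 higher and 1 lower at an unadjusted p below 0.05). Max, the partner of Myc, had the smallest p (-1.34, adjusted p = 0.131). Of 76 mitochondrial ribosomal protein genes 25 were tested, 5 were higher, among them Mrpl40, Mrpl45, Mrps17 and Mrps15, and the median of the 25 was 1.79. In granule-low neutrophils Mrpl40 was at 0.514 and 0.0919 TPM, Mrpl45 at 0.109 and 0.098 and Mrps17 at 1.54 and 0. The pass of these genes through the filter thus rests on the remaining classes. Mrps15 was at 25.2 and 33.3 TPM there. Over all genes tested 9.9% were called higher, with a median of 0.24.

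In granule-high against granule-low neutrophils, these lists held 2 calls: Mrpl45 was higher by 5.04 and Fau was lower. Over all genes tested 2.94% were called higher and 3.58% lower. Mrpl45 was at 0.109 and 0.098 TPM in granule-low and at 36.4 and 34.1 TPM in granule-high neutrophils. The size of its difference thus depends on the pseudocount, and its pass through the filter rests on classes where it was higher. Between Mki67-positive and granule-high neutrophils these lists held no call, as was so of all genes tested. At an unadjusted p below 0.05 (limma) the TOP list held 3 higher genes and the biogenesis list 2, with none lower in either. Of all genes tested, 3.82% were higher and 3.42% lower at that level. All 17 genes of the TOP list had differences above 0 in this comparison, with a median of 0.51. Over all 4586 genes tested, 2293 had differences above 0, and the median was 0.00. The part of depth and of the cell at 19.3% in the values of these lists was not tested. The 3 comparisons share the granule-low or granule-high samples, so their values are not independent.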

How the data were processed

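The authors deposited TPM values for 23420 genes in each cell, scaled to 1000000 per cell. RSEM and the mm10 build are named per the submitters' processing notes; their versions, the aligner and the annotation were not given in the sources used here. Depth is unknown from TPM. A minimum of 500 genes per cell removed 0 cells. TPM was averaged over the cells of each of 5 classes in each of 2 replicates. log2(mean TPM + 1) was fitted with limma (version 3.58.1 in R 4.3.3, trend and robust settings on) for the 4586 genes past the filter, with all classes in 1 fit and Benjamini-Hochberg adjustment. The replicate was a block, since the classes are cut from the same cells of each replicate. Differences on this scale understate those of low genes. The fit was also run on simulated averages with normal noise and 200 genes raised in other cells. These held no single cells and no replicate effect. That run therefore cannot show how the p-values behave for averages over few cells with many values of 0. Shares of TPM were averaged over cells in Python 3.11.15, and cells were not counted as replicates. The members, classes and gene lists were chosen with earlier results of these data known.

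Named genes were the 10 members with the highest mean TPM, the 5 highest and 5 lowest differences in each comparison, members called against the majority, the P-stalk genes, paralogs beside their parents, members at 0 in every cell and the 4 genes of each other list with the smallest p. Rpl3, Rpl4, Rpl30, Rps15a and the further genes that did not pass were named after their values were seen. A few genes that this rule selects are not reported here. The markers Ly6g, Ighm, Trac and Hbb-bt were not matched. Alternatives were other pseudocounts, no filter, means of log values, another total, centring, no block, averages per plate, other class limits, and leaving out replicates or cells. Those that leave out cells with B cell or T or NK cell markers, and the range of 1500 to 3000 genes, were added after seeing the data.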

Additional observations from a re-analysis of the deposited data

How the results depend on the processing

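The 64 genes called higher in other cells than in granule-low neutrophils numbered 46 (no filter on low values) to 77 (means of log values) over 15 alternative settings, with 67 without the neutrophils with B cell markers and 59 without the other cells with lymphocyte markers, and 0 were lower in each. Over all genes tested the share called higher was 8.28% with no filter and 43.7% with means of log values, against 9.9%. It was 10.7% without the neutrophils with B cell markers and 9.14% without the other cells with lymphocyte markers. The share called lower ran from 1.67% (no filter) to 9.46% (centring) over the 15 settings. Without the replicate block 62 members were called higher (9.75% of all genes tested). The classes are paired by construction, and the block changed no other count of members. In granule-high against granule-low neutrophils, the genes called lower were 2 with a pseudocount of 0.1 (3.18% of all genes tested) or 10 (5.58%), 6 with averages per plate (3.88%), 4 with the calprotectin limit at 1000 TPM (3.71%) and 2 with it at 50000 TPM (4.1%); those called higher were 2 with that last limit (4.21%) and 1 without the neutrophils with B cell markers (3.31%). With means of log values 4 were higher (10.2% of all genes tested) and 0 lower (4.01%) there. Between Mki67-positive and granule-high neutrophils, 11 were called higher with means of log values (2.64%) and 1, Rpsa, with averages per plate (0.305%). Calls with averages per plate treat the 2 plates of a replicate as separate samples, though they are not independent replicates. With 1 replicate left out no test could be made, and only values are given.

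The summed shares moved beyond the spread between replicates in these settings. Without S100a8, S100a9, the 4 granule genes and Rn45s in the total they were 2.31% (granule-low), 1.44% (granule-intermediate), 2.05% (granule-high), 3.69% (Mki67-positive) and 10.01% (other cells). Over only the 29 members above 0 in at least 50% of cells they were 1.26%, 0.742%, 0.742%, 1.17% and 4.28%. The granule-low share was 1.77% as a median over cells, 1.94% with 3 equal classes per plate, 1.68% with the limit at 50000 TPM, 1.82% without cells with B cell markers and 2.91% in cells with 1500 to 3000 genes. The granule-intermediate share was 1.1% with equal classes, 1.16% with at least 1000 genes per cell and 1.19% in the range of genes. The other cells had 9.98% as a median, 10.5% and 7.36% with the limits at 1000 and 50000 TPM, and 8.99% without lymphocyte markers.

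Differences that changed sign were, but for the median over members, those of genes that had not passed the test; the cause was not tested. For granule-high minus granule-low, means of log values gave a median of 0.69 over members, and 0.86 for Rps4x, 0.37 for Rps27a, 1.53 for Rplp0, 0.81 for Rpl9, 1.81 for Rpl7, 2.39 for Rpl13, 1.26 for Rps3a1 and 0.057 for Rplp1. The changed total gave 0.021 for Rps4x, 0.056 for Rplp0, 0.18 for Rpl7 and 0.38 for Rpl13. Centring gave 0.0029 for Rpl7 and 0.085 for Rpl13, averages per plate 0.021 for Rpl7, and leaving out neutrophils with B cell markers 0.028 for Rpl7 and 0.18 for Rpl13. The limit at 50000 TPM gave 0.21 for Rpl7, 0.58 for Rpl13 and 0.42 for Rpl10a, and Mki67 of at least 10 TPM gave -0.019 for Rpl19. For Mki67-positive minus granule-high, Rps27 was at 0.26 with the limit at 1000 TPM and 0.026 with averages per plate, Rplp1 at -0.43 with the limit at 50000 TPM, Rps4y2 at 0.22 with a pseudocount of 10 and 0.093 with means of log values, and Rpl34 at 0.27 with the latter. For other cells minus granule-low, Rpl34 was at 0.13 and 1.30 with the limits at 1000 and 50000 TPM, 0.84 with averages per plate and 0.91 with means of log values. Rps4y2 was at -0.16 with the limit at 50000 TPM and -0.065 with a pseudocount of 10, Rpl37 at -0.12 with the limit at 50000 TPM, and centring gave -0.20 for Rps9 and -0.16 for Rpl7l1. Rps9 kept its call for granule-high minus granule-low except with means of log values.

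With 1 replicate left out, the shares ranged from 2.0% to 2.08% (granule-low), 1.13% to 1.15%, 1.21% to 1.36%, 1.64% to 3.16% and 9.31% to 9.70%. Single genes that took both signs were, for granule-high minus granule-low, Rpl19 (-0.28 to 0.30), Rpl13 (-0.38 to 0.029), Rpl22l1 (-0.13 to 2.18), Rps18 (-0.80 to 4.56) and Rps4y2 (-2.56 to 4.88). For Mki67-positive minus granule-high they were Rpl34 (-1.31 to 0.13), Rplp1 (-1.21 to 1.62) and Rps4y2 (-2.5 to 1.23), and for other cells minus granule-low Rpl34 (-0.60 to 0.21), Rpl7l1 (-0.39 to 0.81) and Rps4y2 (-0.58 to 1.79). TPM carries no counts, so how far depth limits each value is unknown.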

Other observations

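The table also holds 6 rows named as ribosomal protein pseudogenes, which were left out of the set. Their mean TPM over all cells summed to 355.8, of which Rpl34-ps1 made up 283.9. Rpl34-ps1 was at 316.98 TPM in granule-low, 187.02 TPM in granule-intermediate, 160.3 TPM in granule-high and 298.7 TPM in Mki67-positive neutrophils and at 725.8 TPM in other cells (means over cells), while Rpl34 itself was at 21.9 and 22.6 TPM in the 2 replicates of other cells. Rps15a-ps6 was at 165.9 TPM in other cells and 10.5 TPM in granule-low neutrophils.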
